A study of Mus musculus with 15 samples.

Results

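The 8 genes described here encode 6 secreted stress factors, namely Fgf21, Gdf15, Adm, Adm2, Stc1 and Stc2, and both parts of the receptor on which FGF21 acts, Klb and Fgfr1. They were taken by symbol from a table of 23337 genes, all 8 were found, and they were followed across 3 groups of mouse heart cells. An adeno-associated virus (AAV, a virus stripped of its own genes and used to bring a gene into tissues) had been given on postnatal day 1 to Rosa-Cas9GFP mice, which carry Cas9 and GFP in their genome whatever the vector. Cardiomyocytes were taken at 4 weeks of age by Langendorff digestion, sorted by FACS and sequenced as polyA RNA. The ATF4 group received AAV-ATF4-2A-GFP, the DDIT3 group AAV-DDIT3-2A-GFP and the GFP group AAV-GFP, with 5 libraries in each. The labels name no promoter for the vectors, do not state the sort gate and do not tie libraries to individual mice. The p-values therefore cover the spread among these libraries, which may be technical.

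ATF4 is the transcription factor through which the integrated stress response raises amino acid synthesis and transport, and DDIT3 (CHOP) is a factor of endoplasmic reticulum stress. FGF21 is a hormone released by liver and by stressed muscle, and it binds beta-klotho (the product of Klb), which holds it to the tyrosine kinase receptor FGFR1. GDF15 is a distant relative of TGF-beta that lowers food intake through GFRAL and RET in the hindbrain. Adrenomedullin (Adm) and adrenomedullin 2 (Adm2, also called intermedin) are vessel-dilating peptides that act on the calcitonin receptor-like receptor Calcrl paired with a RAMP protein. Stanniocalcins 1 and 2 are glycoproteins that restrain the pappalysin proteases, which free insulin-like growth factors from their binding proteins.

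The 150 bases before the RefSeq start of the 4 genes that were higher in ATF4 libraries than in both other groups are shown first, since ATF4, with a C/EBP partner, binds response elements upstream of genes that it controls. They come from RefSeq on GRCm38.p6, are written 5′ to 3′ on the gene's own strand, and capitals mark a match to TGATGNAA, the core of the C/EBP-ATF response element, on either strand. For Gdf15 the first of 2 windows is shown. In the order given they lie at chr7:45615491-45615640 (minus strand), chr8:70632457-70632606 (minus strand), chr15:89322570-89322719 (plus strand) and chr11:31370062-31370211 (minus strand).
Fgf21: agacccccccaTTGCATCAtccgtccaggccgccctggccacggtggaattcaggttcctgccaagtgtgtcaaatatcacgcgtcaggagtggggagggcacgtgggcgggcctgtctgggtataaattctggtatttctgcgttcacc
Gdf15: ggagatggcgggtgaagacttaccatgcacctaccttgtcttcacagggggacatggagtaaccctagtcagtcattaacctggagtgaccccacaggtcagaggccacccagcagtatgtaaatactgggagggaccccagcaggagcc
Adm2: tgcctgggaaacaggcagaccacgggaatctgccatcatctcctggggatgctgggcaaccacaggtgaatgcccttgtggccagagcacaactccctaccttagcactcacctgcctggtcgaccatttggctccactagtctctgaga
Stc2: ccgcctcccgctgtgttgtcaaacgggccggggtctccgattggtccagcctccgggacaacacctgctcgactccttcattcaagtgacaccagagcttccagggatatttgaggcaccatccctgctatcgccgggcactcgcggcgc

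Windows of 250 bases before to 50 after the start were matched for 6 of the 8 genes (7 windows), and Stc1 and Fgfr1 are only named here. The letters TGATGNAA were found in 1 of those 7 windows, that of Fgf21, where they read TTGCATCA at 139 to 132 bases before the start (chr7:45615622-45615629). Of 32851 windows of the same length, 3.97% hold these letters. The cAMP response element TGACGTCA, found in 1.79% of all windows, was in none of the 7. With 1 match in all, no motifs overlapped, and a missing match says only that the letters are not in the window.

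**Figure D1:**
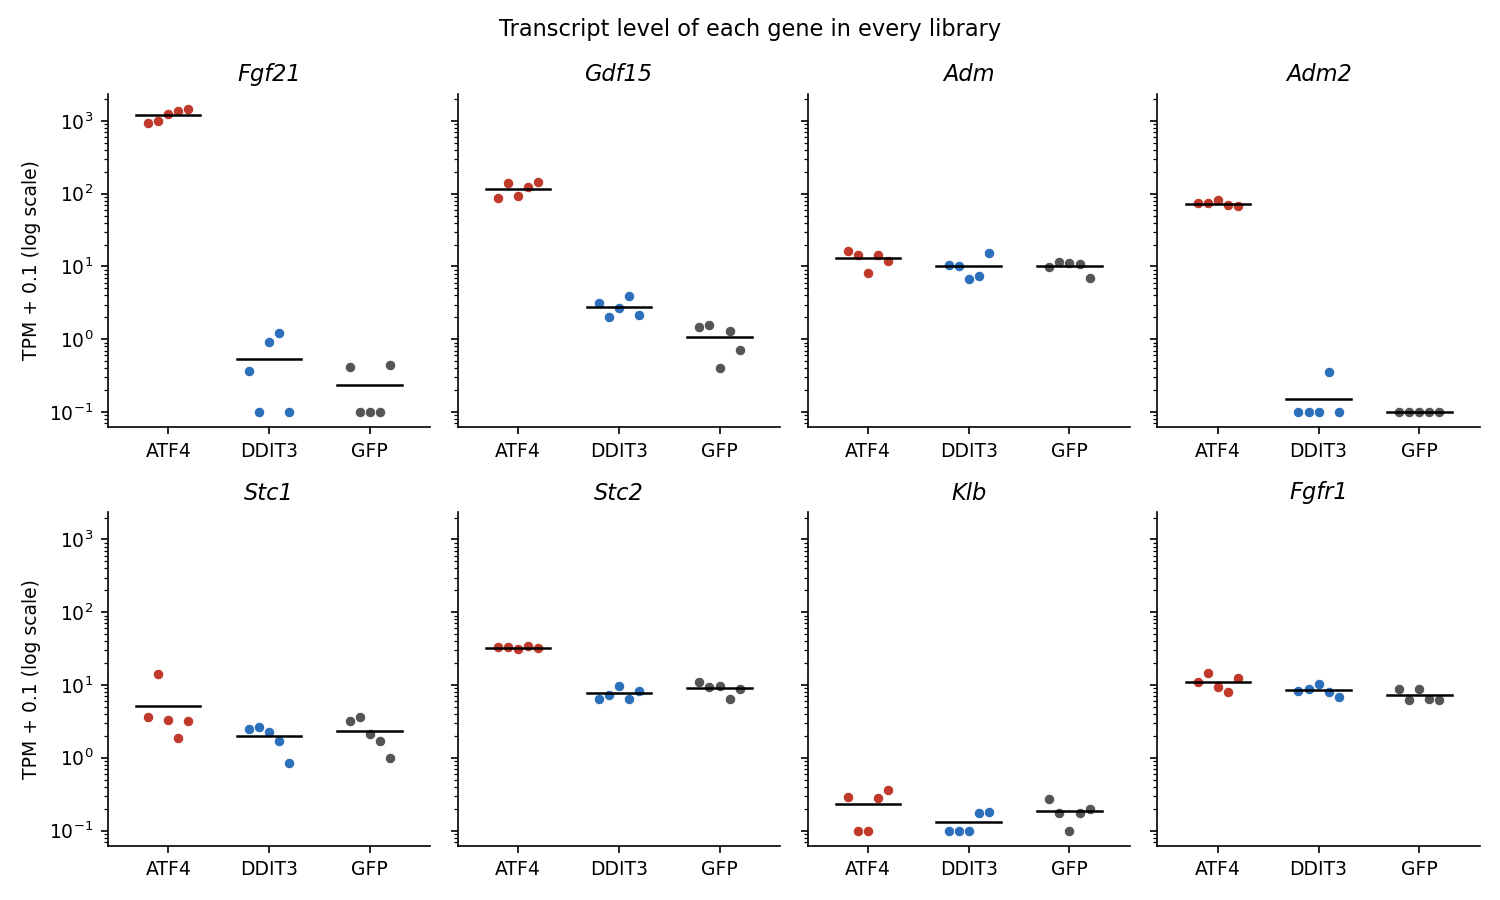
Transcript level (TPM + 0.1, log scale) of each of the 8 genes in every library, with ATF4, DDIT3 and GFP libraries from left to right; each point is 1 library and each bar the arithmetic mean of 5. Fgf21, Gdf15, Adm2 and Stc2 have all 5 ATF4 points above every point of the other groups, while the groups of Adm, Stc1, Klb and Fgfr1 overlap.

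Total counts per library lay between 6217744 and 8317249. The gene carried by each vector was highest in its own group: Atf4 averaged 399.9 ± 79.5 CPM in ATF4, 66.5 ± 22.9 in DDIT3 and 71.1 ± 12.2 in GFP libraries (SD, n = 5 each), and Ddit3 averaged 29.5 ± 7.62, 844.3 ± 179.5 and 15.6 ± 1.28 CPM in the same order. Reads from a vector and from the gene itself fall in the same row. ATF4 replicate 2 and DDIT3 replicate 2 stood apart on the second principal component (scores of 40.6 and 35.2, with the other 13 libraries between -25.4 and 13.9). GFP replicate 5 is labelled SMART-Seq3, unlike the other 14, which name SMART-Seq2. Cardiomyocyte markers were abundant in every library, with a summed level of 93804 to 105461 CPM in ATF4, 116540 to 127808 in DDIT3 and 111715 to 141885 in GFP libraries. Markers of endothelial cells were higher in the ATF4 group, at a summed 1138 to 1654 CPM, against 479.6 to 817.7 in DDIT3 and 499.3 to 1005 in GFP libraries. In such bulk samples, fewer cells of a type and less RNA per cell cannot be told apart.

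Fgf21, Gdf15, Adm2 and Stc2 rose in cardiomyocytes that received ATF4, by 3.20-fold for Stc2 and by orders of magnitude for the other genes. The edgeR quasi-likelihood test called all 4 against both GFP and DDIT3, also in all 21 alternative fits. Those fits reuse the same ATF4 libraries, through which Fgf21, Gdf15 and Adm2 passed the low-count filter. Agreement among the fits is therefore not independent support. Fgfr1 also passed the threshold against GFP, with a log2 fold change of 0.33 to 0.48 over 21 alternative fits, 11 of which lost the call. Adm and Stc1 passed in none of the 3 comparisons in the main fit, and Klb had too few reads for it. Of 21 alternative fits, 1 called Stc1 in ATF4 against GFP and 3 did in ATF4 against DDIT3, while none called Adm. None of the 8 was called in DDIT3 against GFP by edgeR or by DESeq2, where 1 (Gdf15) had an unadjusted p below 0.05.

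Read against all 11814 genes tested, 5 of the 7 fitted genes were higher in ATF4 than in GFP libraries, where 16.5% of all genes were higher and 15.6% lower. The comparisons share their libraries, ATF4 and DDIT3 being set against the same 5 GFP libraries. Between DDIT3 and GFP, 0.525% of all genes were higher and 0.339% lower. Between ATF4 and DDIT3, 4 of the 7 were higher, beside 17.8% higher and 16.0% lower of all genes. The median log2 fold change of the 7 was 1.68 for ATF4 over GFP (0.02 over all genes) and 1.91 for ATF4 over DDIT3 (0.00). The median for ATF4 over GFP is the same with Adm2, absent from GFP libraries, set at its lower bound. Fgf21, Gdf15 and Adm2 passed the filter on low counts through the ATF4 libraries, so that these counts and medians are a description.

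**Figure D2:**
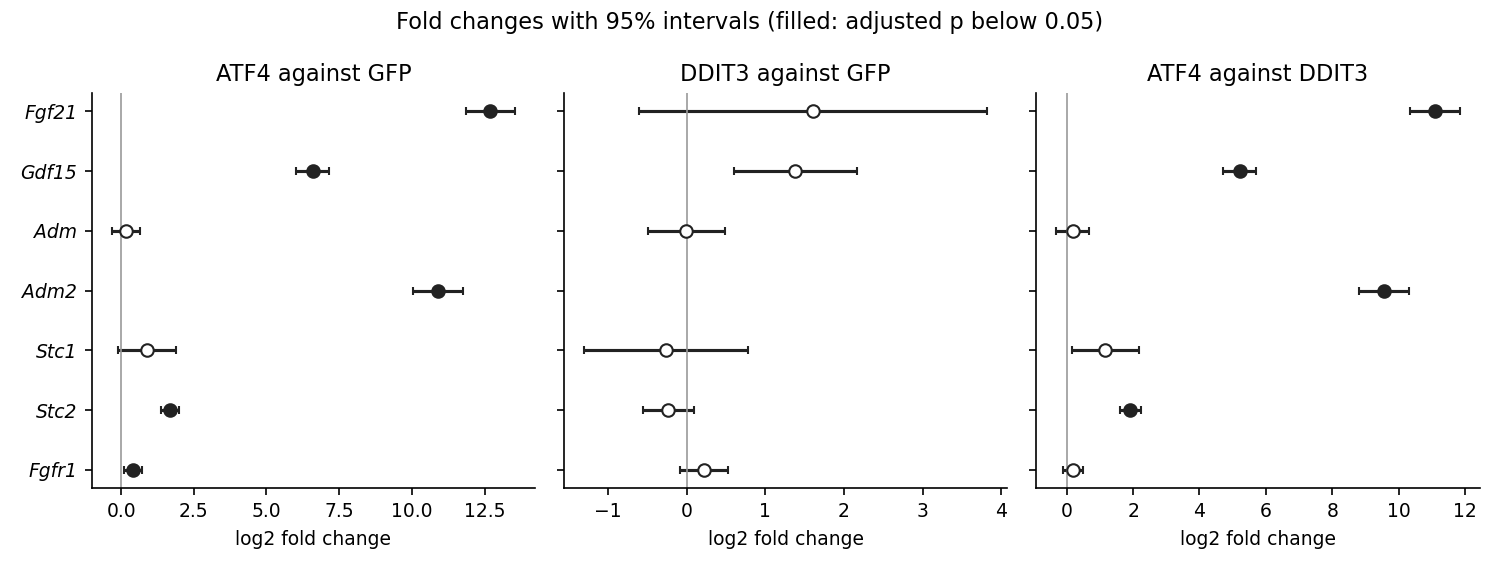
Log2 fold change of the 7 fitted genes with its 95% interval in ATF4 against GFP, DDIT3 against GFP and ATF4 against DDIT3 (the horizontal axes differ); filled points have an adjusted p below 0.05 in edgeR's quasi-likelihood test. Fitted values of Fgf21 and Adm2 depend on the prior count, since they had 10 reads or fewer in the DDIT3 and GFP libraries; Adm2, with 1 read and no read, is left out of DDIT3 against GFP.

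Fgf21 (chromosome 7, 45613890 to 45615490, GRCm38.p6) had the highest TPM of the 8 genes in ATF4 cardiomyocytes. It stood at 352.3, 360.5, 540.4, 590.3 and 584.9 CPM in ATF4 libraries 1 to 5. The 5 DDIT3 libraries held 1, 0, 3, 4 and 0 reads of Fgf21, and the 5 GFP libraries 1, 0, 0, 0 and 1 reads. All ATF4 libraries were above all others, and within that group replicates 1 and 2 lay below the other 3. The mean was 485.7 ± 120 CPM in ATF4, 0.201 ± 0.232 in DDIT3 and 0.0584 ± 0.0805 in GFP libraries (SD, n = 5 each). Fgf21 was higher in 5 of 5 ATF4 libraries than in any DDIT3 library (edgeR adjusted p = 4.62e-14), with a count ratio of 2366 (95% counting interval 1200 to 5481). Against GFP the adjusted p of Fgf21 from edgeR was 3.77e-14. Between DDIT3 and GFP the 8 and 2 reads of Fgf21 gave a ratio of 3.66 with an interval of 0.731 to 35.4 (edgeR adjusted p = 0.701), so no difference was detectable at this depth. That test had a value only because the ATF4 libraries carried Fgf21 past the low-count filter.

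Per length, Fgf21 ranked between places 85 and 133 of 23337 genes in the ATF4 libraries. Its TPM there was 0.269 to 0.874 times that of Nppa, the atrial natriuretic peptide, a hormone that cardiomyocytes themselves release. It was also 7.33 to 13.7 times the TPM of Gdf15 in the same library. The 8 genes together took 0.0517% to 0.0778% of all counts in ATF4 libraries, against 0.00340% to 0.00417% in DDIT3 and 0.00260% to 0.00401% in GFP libraries. Fgf21 by itself made up most of that share in ATF4 libraries, at 0.0380% to 0.0613% of counts.

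Klb (chromosome 5, 65348411 to 65386957), the co-receptor that FGF21 requires, was close to absent in every group. It had 2, 0, 0, 2 and 3 reads in ATF4 libraries, 0, 0, 0, 1 and 1 reads in DDIT3 libraries and 2, 1, 0, 1 and 1 reads in GFP libraries. The groups overlap, and 6 of the 15 libraries had no read. The ratio of reads was 1.35 for ATF4 against GFP (0.369 to 5.40), 0.366 for DDIT3 against GFP (0.0349 to 2.24) and 3.69 for ATF4 against DDIT3 (0.703 to 36.4). Two-sided exact permutation tests of CPM gave p = 0.690, 0.167 and 0.206 in that order, where 5 against 5 libraries allow no p below 0.00794. Without the filter on low counts, edgeR gave Klb adjusted p-values of 0.816, 0.761 and 0.283.

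Fgfr1 (chromosome 8, 25518759 to 25575718), the tyrosine kinase receptor of FGF21 and of other FGFs, was present in all libraries. Its levels were 21.6, 27.3, 21.3, 17.7 and 25.7 CPM in ATF4 libraries, 19.1, 20.9, 23.9, 19.8 and 16.3 CPM in DDIT3 libraries and 19.9, 15.1, 20.4, 15.8 and 14.7 CPM in GFP libraries. In ATF4, 4 of 5 libraries exceeded every GFP library, and ATF4 replicate 4 lay within the GFP range. Fgfr1 averaged 22.7 ± 3.79 CPM in ATF4, 20.0 ± 2.76 in DDIT3 and 17.2 ± 2.72 in GFP libraries. Its log2 fold change was 0.40 ± 0.15 (SE) in ATF4 against GFP (edgeR adjusted p = 0.0422), 0.22 ± 0.15 in DDIT3 against GFP (adjusted p = 0.703) and 0.18 ± 0.14 in ATF4 against DDIT3 (adjusted p = 0.358). The call against GFP was lost without ATF4 replicate 1, 2 or 5, GFP replicate 2, 4 or 5, or DDIT3 replicate 1 or 4, with adjusted p-values of 0.0514 to 0.101. It was also lost with no low-count filter, in a fit of those 2 groups alone and without both libraries that stood apart. The authors' deposited table gives Fgfr1 an adjusted p of 0.0765. Endothelial markers were higher in the same libraries (mean log2 CPM 6.07 ± 0.263 in ATF4, 4.98 ± 0.320 in DDIT3, 5.28 ± 0.419 in GFP), and their part in the Fgfr1 result was not tested.

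Gdf15 (chromosome 8, 70629393 to 70632470) separated all 3 groups. It stood at 37.5, 56.3, 45.1, 59.8 and 66.5 CPM in ATF4 libraries, 1.57, 0.971, 1.33, 2.08 and 1.08 CPM in DDIT3 libraries and 0.671, 0.782, 0.153, 0.658 and 0.316 CPM in GFP libraries. Every ATF4 library was above every DDIT3 library, and every DDIT3 library above every GFP library. Gdf15 averaged 53.0 ± 11.7 CPM in ATF4, 1.41 ± 0.444 in DDIT3 and 0.516 ± 0.268 in GFP libraries (SD, n = 5 each). The log2 fold change was 5.21 ± 0.24 in ATF4 against DDIT3 (edgeR adjusted p = 5.67e-12) and 6.60 ± 0.27 in ATF4 against GFP (adjusted p = 1.66e-12). In DDIT3 against GFP the log2 fold change of Gdf15 was 1.38 ± 0.37, with an unadjusted p of 0.00156 and an edgeR adjusted p of 0.105, so that it did not pass. That comparison rests on 55 reads in DDIT3 and 19 reads in GFP libraries, a ratio of 2.65 with a counting interval of 1.55 to 4.73. Its adjusted p lay between 0.0575 and 0.259 over 20 alternative fits, and the authors' deposited table gives 0.182. A fit of DDIT3 and GFP alone gave no value, since the low-count filter then removed Gdf15.

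With DDIT3 against GFP, 1 of the 7 fitted genes (Gdf15) had fully separate groups, with 1.68% of all tested genes doing so in that direction. With ATF4 against GFP it was 4 of 7 (Fgf21, Gdf15, Adm2 and Stc2), beside 11.7% of all tested genes. With ATF4 against DDIT3 the same 4 were apart, beside 12.3%. Since Fgf21, Gdf15 and Adm2 passed the filter on low counts through the ATF4 libraries, these counts too are a description and not a test.

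Adm2 (chromosome 15, 89322720 to 89324731) went with Fgf21 in being read almost nowhere but in ATF4 libraries. It had 237, 197, 287, 230 and 230 reads there, or 30.9, 28.9, 38.6, 32.6 and 29.2 CPM. There was 1 read in DDIT3 replicate 4, and no read in the other 4 DDIT3 libraries or in any GFP library. The ATF4 values spread little, with a coefficient of variation of 12.4%, against 24.6% for Fgf21 and 22.0% for Gdf15 in the same libraries. Adm2 was at least 380-fold higher in ATF4 than in GFP, taking a floor of 3 reads over the GFP group (edgeR adjusted p = 3.99e-11). Against DDIT3 the ratio of reads was 1245 with a counting interval of 223 to 49233 (edgeR adjusted p = 3.94e-11).

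Adm (chromosome 7, 110627657 to 110629820), the paralog with overlapping receptors, showed no such pattern. Its levels were 8.98, 7.48, 4.98, 8.94 and 6.86 CPM in ATF4 libraries, 6.78, 6.66, 4.34, 5.08 and 10.2 CPM in DDIT3 libraries and 6.04, 7.82, 7.05, 7.51 and 4.58 CPM in GFP libraries. The 3 groups overlap, and the highest of the 15 values lies in DDIT3 replicate 5. The log2 fold change of Adm was 0.17 ± 0.23 in ATF4 against GFP (95% interval -0.32 to 0.66, edgeR adjusted p = 0.610). It was -0.00 ± 0.23 in DDIT3 against GFP (-0.49 to 0.49, adjusted p = 0.999) and 0.17 ± 0.23 in ATF4 against DDIT3 (-0.31 to 0.66, adjusted p = 0.604). In ATF4 libraries the mean TPM was 73.2 ± 5.77 for Adm2 and 13.0 ± 3.23 for Adm, whereas in GFP libraries Adm led the 8 genes in TPM and Adm2 was not read.

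Stc2 (chromosome 11, 31359441 to 31370061) was read in all 3 groups and was 3.20-fold higher in ATF4 than in GFP libraries. It stood at 23.4, 22.3, 25.0, 27.8 and 23.9 CPM in ATF4 libraries, 5.33, 6.10, 8.20, 5.60 and 7.27 CPM in DDIT3 libraries and 8.85, 8.21, 7.97, 5.79 and 7.43 CPM in GFP libraries. All ATF4 libraries were above all others, and the DDIT3 and GFP libraries overlapped. Stc2 averaged 24.5 ± 2.10 CPM in ATF4, 6.50 ± 1.21 in DDIT3 and 7.65 ± 1.16 in GFP libraries. The log2 fold change was 1.91 ± 0.15 in ATF4 against DDIT3 (edgeR adjusted p = 1.60e-08) and 1.68 ± 0.15 in ATF4 against GFP (adjusted p = 9.01e-08). In DDIT3 against GFP it was -0.23 ± 0.16 (95% interval -0.56 to 0.09, adjusted p = 0.710). Its coefficient of variation over ATF4 libraries, 8.59%, was the lowest of the 8 genes.

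In ATF4 against GFP, Stc1 (chromosome 14, 69029289 to 69041401) turned on 1 library. It stood at 5.21, 19.8, 5.38, 2.98 and 4.83 CPM in ATF4 libraries, 4.24, 4.58, 3.74, 2.99 and 1.35 CPM in DDIT3 libraries and 5.36, 6.65, 3.52, 3.03 and 1.58 CPM in GFP libraries. ATF4 replicate 2, one of the libraries that stood apart, held the highest value, and the other 4 ATF4 libraries lay within the GFP range. The log2 fold change of Stc1 in ATF4 against GFP was 0.90 ± 0.47 (edgeR adjusted p = 0.155), and 0.18 without that library (adjusted p = 0.740). In ATF4 against DDIT3 it was 1.16 ± 0.48 (adjusted p = 0.0691), and 0.44 without that library (adjusted p = 0.381). With the replicate number as a block, which treats same-numbered libraries as paired, it was 1.01 ± 0.29 with an edgeR adjusted p of 0.0107. In that comparison 4 of 5 ATF4 libraries exceeded every DDIT3 library. In DDIT3 against GFP Stc1 was at -0.26 ± 0.49 (adjusted p = 0.939). The endothelial marker score of ATF4 replicate 2 was 6.36, with 5.76 to 6.34 in the other ATF4 libraries. The same library was the lowest of the 5 in fibroblast (4.36), pericyte and smooth muscle (4.99) and leukocyte (0.709) scores. The part of these markers in the Stc1 value was not tested.

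The order of the 8 genes by TPM differed between the groups. In ATF4 libraries it ran from Fgf21 (1215 ± 233.2 TPM) through Gdf15 (117.3 ± 26.8), Adm2 (73.2 ± 5.77) and Stc2 (32.6 ± 1.33) to Adm (13.0 ± 3.23), Fgfr1 (11.0 ± 2.56), Stc1 (5.12 ± 5.05) and Klb (0.128 ± 0.121). Adm overlaps Fgfr1 there, and Fgfr1 overlaps Stc1, while the other neighbours are apart. In DDIT3 libraries Adm (9.97 ± 3.33 TPM), Fgfr1 (8.34 ± 1.28) and Stc2 (7.56 ± 1.47) overlapped each other at the top, followed by Gdf15 (2.70 ± 0.808), Stc1 (1.89 ± 0.744), Fgf21 (0.438 ± 0.50), Adm2 and Klb. In GFP libraries Adm (9.93 ± 1.82), Stc2 (8.93 ± 1.63) and Fgfr1 (7.18 ± 1.42) again overlapped at the top, followed by Stc1 (2.25 ± 1.11), Gdf15 (0.985 ± 0.502), Fgf21 (0.132 ± 0.181), Klb and Adm2. In TPM, Gdf15 and Stc1 overlapped in the DDIT3 and in the GFP libraries, as did all neighbours ranked below them. By CPM, which does not take account of length, Fgfr1 and Stc1 came before Adm in the ATF4 libraries. Stc1 (7.64 ± 6.86 CPM) overlapped both of these genes there, and its mean includes 19.8 CPM in ATF4 replicate 2. Fgfr1 led by CPM without overlap in the DDIT3 (20.0 ± 2.76 CPM) and GFP libraries (17.2 ± 2.72 CPM).

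The genes most like each of the 7 in profile were named by the root mean square difference of centred log2 CPM over the 15 libraries, which is mostly set by the group means. Other members and provisional or date-like symbols were left out before ranking. For Fgf21 they were Slc7a3 (0.458), Phgdh (0.584) and P2rx3 (0.759), at 297.7, 345.7 and 376.3 CPM in ATF4 libraries and under 1 CPM on average elsewhere. For Gdf15 they were Hyal1 (0.547), Pck2 (0.556) and Vmn2r3 (0.605). Closest to Adm2 came Gjb2 (0.315), Soat2 (0.346) and Asns (0.372), and closest to Stc2 came Klhl22 (0.211), Mars (0.241) and Vars (0.246). Slc7a3 is a cationic amino acid transporter, Phgdh starts serine synthesis, Asns makes asparagine, and Mars and Vars charge transfer RNAs with methionine and valine. The list for Stc1 was Id1 (0.343), Sh2d3c (0.362) and Klf4 (0.363), that for Adm was Ccdc132 (0.248), Nubpl (0.251) and Plekhf2 (0.254), and that for Fgfr1 was Plbd2 (0.127), Samd4b (0.141) and Ctu2 (0.142).

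**Figure D3:**
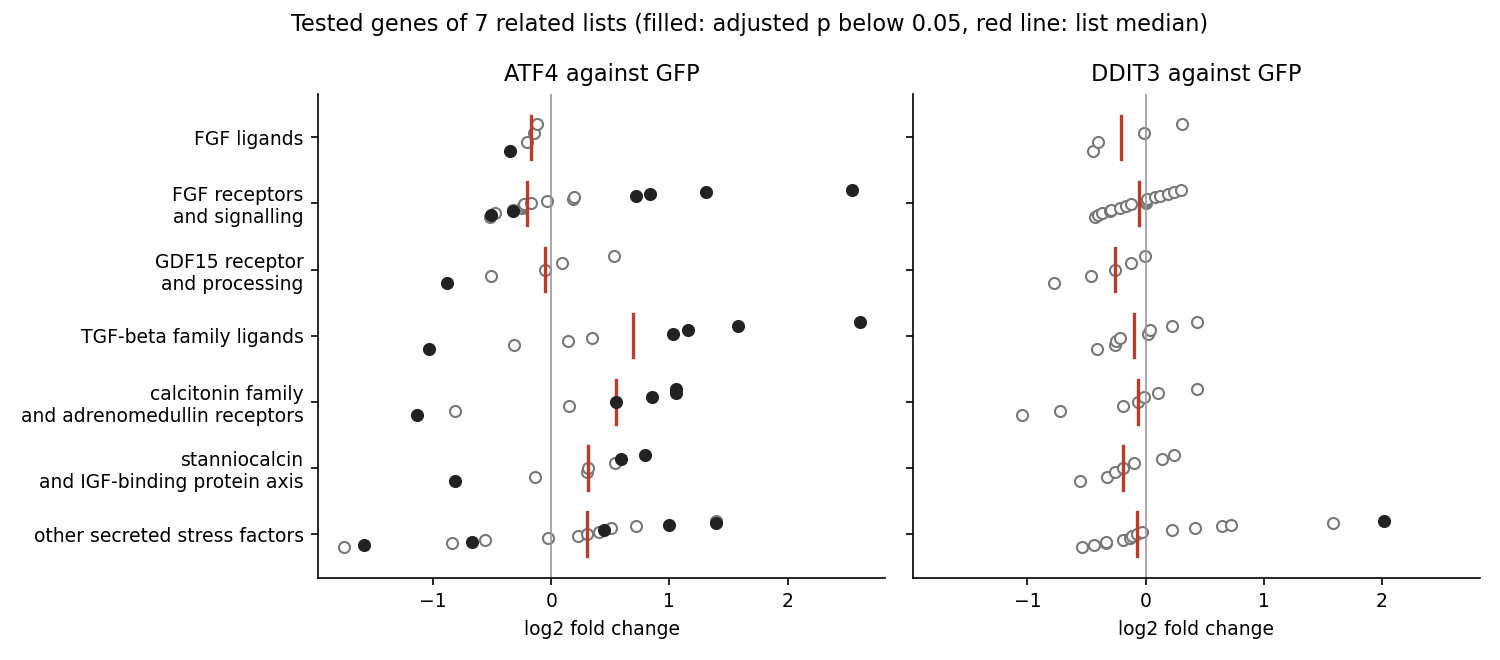
Log2 fold changes of the 62 tested genes of 7 lists of related ligands, receptors and partners, in ATF4 against GFP (left) and DDIT3 against GFP (right); filled points have an edgeR adjusted p below 0.05 and the red line is the list's median. In ATF4 against GFP 17 points are filled on the right of 0 and 9 on the left, and in DDIT3 against GFP 1 is filled.

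The other genes of these pathways were taken as 7 lists with 62 tested genes. In ATF4 against GFP 17 of the 62 rose and 9 fell, in DDIT3 against GFP 1 rose, and in ATF4 against DDIT3 20 rose and 11 fell. Over all tested genes the shares were 16.5% higher and 15.6% lower, 0.525% higher and 0.339% lower, and 17.8% higher and 16.0% lower, in the same order. The 9 and the 11 falls, and the single rise in DDIT3 against GFP, are therefore near those shares. With the replicate block, calls in DDIT3 against GFP over all 11814 genes numbered 322, against 102 without it. Of the 62, 6 were then called: Fstl3, Nppa and Pam rose, and Calcrl, Igfbp5 and Mme fell.

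Of 17 other FGF ligands 4 had enough reads in ATF4 against GFP, with log2 fold changes between -0.35 and -0.12. Fgf1, which like other paracrine FGFs binds heparan sulfate, fell by 0.35 ± 0.12 on the log2 scale (edgeR adjusted p = 0.0282), a call lost in 7 of 21 alternative fits. Of 16 tested FGF receptors and signalling genes 4 rose and 2 fell, with a median of -0.20, beside 16.5% higher and 15.6% lower of all genes. Etv5, an ETS factor switched on by FGF and ERK signalling, averaged 164.5 ± 52.8 CPM in ATF4 and 28.1 ± 10.3 CPM in GFP libraries (log2 fold change 2.55 ± 0.36, adjusted p = 6.02e-05). Spry4 and Dusp6, feedback inhibitors of the same cascade, rose by 0.84 ± 0.19 and 0.72 ± 0.21. In the same list Spry1 (0.18), Spry2 (-0.52), Spred1 (-0.32), Spred2 (-0.04) and Il17rd (0.19) were not called. Fgfr3, another FGF receptor, rose by 1.31 ± 0.34, while Fgfrl1, a receptor without a kinase domain, fell by 0.51 ± 0.12. Grb2, an adaptor of receptor kinases, fell by 0.33 ± 0.12, a call lost in 8 of 21 alternatives. Dusp6 and Grb2 were named after their values were seen, to complete the count, and so were the uncalled genes.

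The receptor of GDF15 was not detected in these cells, with 0 reads of Gfral in ATF4, 1 in DDIT3 and 0 in GFP libraries. Ret, its signalling partner, had 47 reads in each group. Of 5 tested genes of the receptor and its processing enzymes 1 was called in ATF4 against GFP: Furin, a protease that cleaves pro-proteins in the secretory pathway, fell by 0.88 ± 0.17 (edgeR adjusted p = 8.20e-04). Of 8 tested ligands of the TGF-beta family, to which GDF15 belongs, 4 rose and 1 fell. Over all genes 16.5% were higher and 15.6% lower in ATF4 against GFP. Tgfb2 rose by 1.58 ± 0.20, Tgfb3 by 1.16 ± 0.18, Gdf9 by 2.61 ± 0.37 and Bmp6 (named after its value was seen) by 1.03 ± 0.28, and Bmp7 fell by 1.03 ± 0.26. Gdf9, known as an oocyte factor, remained low at 2.15 ± 0.245 CPM in ATF4 and 0.340 ± 0.160 CPM in GFP libraries.

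For the adrenomedullin peptides, 4 of 7 tested genes of the calcitonin family and its receptors rose in ATF4 against GFP and 1 fell. Of all genes 16.5% were higher and 15.6% lower. Calcrl, the receptor itself, averaged 43.1 ± 11.6 CPM in ATF4, 12.5 ± 2.72 in DDIT3 and 20.7 ± 3.70 in GFP libraries, and rose by 1.05 ± 0.20 on the log2 scale in ATF4 against GFP (edgeR adjusted p = 4.72e-04). Ramp2 and Ramp3, which make Calcrl an adrenomedullin receptor, rose by 0.85 ± 0.23 and 1.06 ± 0.32. Ramp1, which makes it a receptor for calcitonin gene-related peptide, fell by 1.14 ± 0.22, to 13.1 ± 4.21 CPM in ATF4 libraries, against 28.8 ± 7.70 in GFP libraries. Crcp, named as a component of that receptor and also a subunit of RNA polymerase III, rose by 0.55 ± 0.17. Ramp3 was named after its value was seen. Calcrl and Ramp2 are expressed by endothelial cells, and 11 of 14 endothelial markers rose in the same comparison, beside 16.5% of all genes. The endothelial score was 0.793 higher in ATF4 than in GFP libraries (two-sided exact permutation test, p = 0.00794, adjusted p = 0.0298 over 15 tests, and 0.0595 without ATF4 replicate 1 or without GFP replicate 5). The part of those markers in the receptor values was not tested.

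For the stanniocalcins, the pappalysins that they restrain were hardly read, with 1, 2 and 8 reads of Pappa and 8, 3 and 0 reads of Pappa2 in ATF4, DDIT3 and GFP libraries. Of 7 tested genes of the insulin-like growth factor axis, 2 rose and 1 fell in ATF4 against GFP, beside 16.5% higher and 15.6% lower of all genes. Igf1, a growth factor, fell by 0.81 ± 0.22 (edgeR adjusted p = 0.00882). Its fetal relative Igf2 rose by 0.59 ± 0.19 and their receptor Igf1r by 0.80 ± 0.29, calls that were lost in 4 and in 9 of 21 alternatives. For Igf1r the value without ATF4 replicate 2 was 0.47 (adjusted p = 0.145).

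Of 15 tested other secreted stress factors, 3 rose and 2 fell in ATF4 against GFP, near the 16.5% higher and 15.6% lower of all genes. Nppa rose by 1.39 ± 0.37 and Cdnf, a protein of the endoplasmic reticulum with neurotrophic activity, by 0.45 ± 0.14. In DDIT3 against GFP the log2 fold change of Nppa was 1.59 ± 0.37 (871.7 ± 379.8 CPM in DDIT3, 289.7 ± 149.9 in GFP libraries), with an edgeR adjusted p of 0.0566. It was called there by DESeq2 (adjusted p = 0.00552), with the replicate block (0.0296), and without DDIT3 replicate 3 (0.0461) or GFP replicate 2 (0.0401). The call of Cdnf was lost without GFP replicate 2 (edgeR adjusted p = 0.0585). Ctf1 (cardiotrophin-1, a cytokine of the interleukin-6 family) fell by 1.58 ± 0.22 and Hbegf, a ligand of the EGF receptor, by 0.67 ± 0.16. Fstl3, which binds activins and myostatin outside the cell, was the one gene of the 62 called in DDIT3 against GFP by edgeR without the block. It averaged 4.26 ± 0.877 CPM in DDIT3 and 1.05 ± 0.677 CPM in GFP libraries, a rise of 2.01 ± 0.35 on the log2 scale (edgeR adjusted p = 0.00719). In ATF4 against GFP Fstl3 rose by 1.0 ± 0.37 (adjusted p = 0.0473), a call lost in 14 of 21 alternatives.

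**Figure D4:**
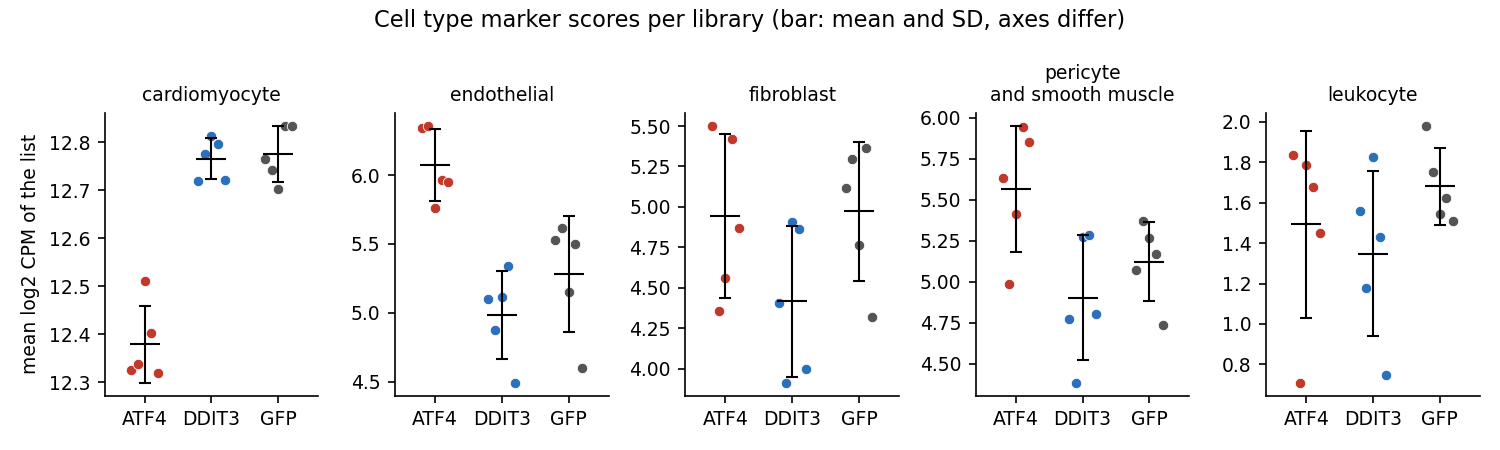
Marker scores (mean log2 CPM over the tested genes of a list) of 5 cell types in every library, with ATF4, DDIT3 and GFP libraries from left to right; bars are the mean and SD of 5 and the vertical axes differ. The ATF4 libraries lie below the others for cardiomyocyte markers (12.4 ± 0.0805, against 12.8 ± 0.0579 in GFP) and above them for endothelial markers.

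For the other marker lists, the score in ATF4 minus GFP was 0.444 for pericytes and smooth muscle (two-sided exact permutation tests, adjusted p = 0.198, and 0.589 with an adjusted p of 0.0298 without ATF4 replicate 2), -0.0295 for fibroblasts (adjusted p = 0.929) and -0.188 for leukocytes (adjusted p = 0.665). Of 9 tested pericyte and smooth muscle markers 5 were called higher and 0 lower by edgeR, beside 16.5% higher and 15.6% lower of all genes. Cd3e, which defines T cells, had no read in ATF4 or GFP libraries. The cardiomyocyte score was 0.397 lower in ATF4 than in GFP libraries (adjusted p = 0.0298).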

How the data were processed

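The members and the gene lists were chosen with earlier results of these data known. Per the submitters' processing notes, the authors used STAR, featureCounts, DESeq2 and DESeq with build mm10 (versions are not given in the sources used here). Per the labels' protocols the kits were SMART-Seq v4 and Nextera XT, which do not mark strand. The protocols thus differ from the labels of single libraries, which name SMART-Seq2, or SMART-Seq3 for GFP replicate 5. Which of these was used is not settled by the sources used here. The deposited table holds whole-number counts for 23337 genes in 15 libraries and a gene length column. From the authors' own comparison tables, which hold per the file headers a mean signal, log2 fold changes, a test statistic (score) and p-values, only values credited to them were used. Of the symbols, 25 had been turned into dates.

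Counts were tested with edgeR 4.0.16 (robust glmQLFit, glmQLFTest, TMM, filterByExpr) in R 4.3.3, in 1 fit of 15 libraries with group as the model term (residual degrees of freedom 12) and a common biological coefficient of variation of 19.6%. The filter left 11814 genes, and p-values were Benjamini-Hochberg adjusted over them (threshold 0.05). Standard errors of log2 fold changes are the absolute log2 fold change over the square root of the quasi-likelihood F statistic. The 95% intervals of log2 fold changes were built from these standard errors, so both are approximate. CPM use TMM factors, TPM the deposited lengths, and log2 CPM a prior count of 2. Count ratios have 95% exact binomial intervals and the floor is 3 counts over a group, both covering counting error only. Libraries of 1 group differed by more than sampling noise (chi-square per degree of freedom 8.12 to 47.2). Alternatives were DESeq2 1.42.0 (Wald test, size factors), no filter, the 2 groups alone, a replicate block, each library left out, and ATF4 and DDIT3 replicates 2 left out. Deviations of same-numbered libraries correlated at 0.205 to 0.511 between DDIT3 and GFP and at 0.135 to 0.497 between ATF4 and DDIT3. Between ATF4 and GFP they correlated at 0.0783 to 0.386. On the second principal component replicate 4 scored -25.4, -15.3 and -15.8 in ATF4, DDIT3 and GFP libraries. Replicate 5 scored -20.3, -16.5 and -14.5 and replicate 2 scored 40.6, 35.2 and 7.82, in that order. No correlation was computed between differently numbered libraries, and the labels do not explain the numbers. Whether the numbers pair libraries was therefore not tested. Named were the members, Atf4 and Ddit3, up to 4 called genes per list by lowest p, and 3 genes most like each member. The scripts were tested on simulated data.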

Additional observations from a re-analysis of the deposited data

Results flagged for a closer look

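Among 23 sets of 5 libraries (a gene in a group), 2 held a library far from the other 4, where chance sets aside about 1 in 20. Stc1 stood at 19.8 CPM in ATF4 replicate 2, with 2.98 to 5.38 CPM in the other ATF4 libraries. Adm2 stood at 0.130 CPM in DDIT3 replicate 4, which is 1 read, with no read in the other DDIT3 libraries. A single read among 4 libraries at 0 always meets that criterion, so this flag carries no information.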

How the results depend on the processing

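Of 1374 values recomputed under the alternatives, 1287 kept their direction and call. Fgf21, Gdf15, Adm2 and Stc2 were called in ATF4 against GFP and against DDIT3 in all 21 alternative fits. Of the 8 genes, 4 to 6 were called for ATF4 over GFP, 0 for DDIT3 over GFP and 4 or 5 for ATF4 over DDIT3. The listed pathway genes called in DDIT3 against GFP, 1 in the report, were 4 by DESeq2, 6 with the replicate block and 1 to 2 with a library left out (2 without ATF4 replicate 2, DDIT3 replicate 3, GFP replicate 2 or GFP replicate 5). In ATF4 against GFP they ranged from 21 to 35, against 26. Calls over all genes moved too, from 3186 of 11878 to 5097 of 11814 in ATF4 against GFP (3801 in the main fit). In ATF4 against DDIT3 they ranged from 3380 of 11878 to 5228 of 11814. For DDIT3 against GFP they were 224 of 13904 by DESeq2 and 322 of 11814 with the replicate block. With a library left out they were 55 of 11897 to 146 of 11904. For ATF4 and GFP the correlations of same-numbered libraries were 0.0783 to 0.386, and whether the numbers pair libraries was not tested. With the replicate block the log2 fold change of Stc1 in ATF4 against GFP was 0.81, with an edgeR adjusted p of 0.0340. In ATF4 against DDIT3 Stc1 was also called by DESeq2 (adjusted p = 0.0428) and without ATF4 replicate 4 (0.0338).

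Leaving out a library lost the call of Fgf1 (ATF4 1, 2 or 3, GFP 3, 4 or 5), Grb2 (ATF4 1, 2, 4 or 5, GFP 1, 3 or 4), Igf1r (ATF4 1 or 2, DDIT3 5, GFP 2, 3, 4 or 5), Igf2 (ATF4 1 or 5, GFP 3 or 5) and Fstl3 in ATF4 against GFP (ATF4 1, 3, 4 or 5, any DDIT3, GFP 2, 3 or 4). Values near 0 changed sign when a library was left out: Adm in DDIT3 against GFP ranged from -0.21 to 0.12 (log2), the Klb difference in ATF4 against GFP from -0.00159 to 0.0937 CPM, the fibroblast and leukocyte scores in ATF4 against GFP from -0.192 to 0.116 and from -0.274 to 0.00793, the leukocyte score in ATF4 against DDIT3 from -0.00424 to 0.342 and the cardiomyocyte score in DDIT3 against GFP from -0.0283 to 0.00455. The causes were not tested. A fit of DDIT3 and GFP alone gave no value for Fgf21, Gdf15 and Adm2, since the filter removed them. Depth limits Klb, Gfral, and Fgf21 and Adm2 outside the ATF4 group.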
